A study of Mus musculus with 45 samples.

Results

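The molecular chaperones and chaperonins of the embryonic mouse cortex were described as 83 genes of the 53491 listed in the SLAM-seq tables. Members were found by symbol: the Hsp70 (Hspa), Hsp90 and small heat shock protein (Hspb) genes, Hsph1, Hspd1 and Hspe1, the J-domain proteins of classes Dnaja, Dnajb and Dnajc, and the Cct subunits, with symbols containing "-ps" removed. A symbol match is not a function, and Hspb11, Hspbp1 and Hspbap1 entered by their names alone without being small heat shock proteins. Of the 83 genes, 65 fell into 10 lists by role and 18 stayed outside them. SLAM-seq measures RNA turnover by labelling new RNA with 4-thiouridine (4sU), which is read as T-to-C conversions after alkylation, and then following the loss of labelled RNA during a chase with unlabelled uridine. Wild-type cortices were dissociated with trypsin, for 5 min when taken at E11.5, 10 min at E14.5 and 20 min at E16.5, and plated in progenitor medium with bFGF. Each stage had 3 pools of embryos, replicates A, B and C, with 7 embryos to a pool at E11.5 and 2 at the later stages. Every pool was split into 5 wells, labelled with 100 uM 4sU for 20 h, given 5 mM uridine, a 50-fold excess, and lysed after 0, 2, 4, 8 or 12 h. All 45 libraries therefore came from dissociated, cultured and 4sU-treated cells, no untreated or fresh tissue was compared, and the dissociation time differed between the stages.

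Chaperones bind unfolded proteins and let them fold. Hsp70 proteins do so in cycles of ATP hydrolysis that J-domain proteins start, Hsp90 acts late on proteins such as kinases and steroid receptors, and the chaperonin CCT encloses actin and tubulin in a double-ring chamber. Heat and other stress induce the cytosolic members through heat shock factor 1, which binds heat shock elements, while unfolded protein in the endoplasmic reticulum (ER) induces the ER members through ATF6 and XBP1, and ATF6 acts at ER stress elements.

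Of the 83 genes, 68 had a promoter (250 bases before to 50 bases after the start) in the RefSeq table of GRCm38.p6, the assembly of mm10. The heat shock element was searched as GAA, any 2 bases, TTC, any 2 bases and GAA, and the ER stress element as CCAAT, any 9 bases and CCACG, each on both strands. The heat shock element stood in the promoters of Hspd1, Hspe1, Dnajb6 and Hsph1, against 0.66% of the 27025 genes with a promoter. The ER stress element stood in those of Hspa5, Hsp90b1 and Dnajc3, against 0.14% of those genes. These matches are descriptions of letters, not of binding. The role lists were not drawn from them. Dnajb6 is in the constitutive cytosolic list, and of the heat-inducible cytosolic list only Hsph1 had a match. The windows of 30 bases below are shown because these genes carry several of the results, each 5′ to 3′ on the strand of its gene, with the fixed letters of the element in capitals. Hspd1 lies on the minus strand (chr1:55088050-55088079), Hspe1 on the plus strand (chr1:55088056-55088085) and Dnajb6 on the plus strand (chr5:29735844-29735873).
Hspd1: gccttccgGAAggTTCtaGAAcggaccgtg
Hspe1: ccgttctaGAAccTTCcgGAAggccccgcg
Dnajb6: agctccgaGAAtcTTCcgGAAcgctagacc
The Hspd1 and Hspe1 windows cover overlapping bases read from opposite strands, their stretches in capitals overlap without being the same bases, and the GENCODE vM21 models of the 2 genes overlap by 112 bases.

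The Hsp90b1 promoter held another ER stress element, in the reverse orientation, that is not shown. The ER stress element of Hspa5 lies on the plus strand (chr2:34772020-34772049), the one shown for Hsp90b1 on the minus strand (chr10:86705632-86705661) and that of Dnajc3 on the plus strand (chr14:118937822-118937851).
Hspa5: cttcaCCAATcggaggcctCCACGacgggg
Hsp90b1: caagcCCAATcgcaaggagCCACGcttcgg
Dnajc3: cacaaCCAATcagcgccaaCCACGacccgg

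Libraries held 15.9 to 43.9 M reads (median 33.0 M) and 228.7 to 629.1 M covered thymines, the unit on which the tests ran, so counting error is small for all but the lowest members. A ribosomal-RNA-like gene, Gm42418, was the top gene of every E11.5 library at 12 h. It took 29686, 35413 and 67623 CPM (reads scaled to a library total of 1 M) in replicates A, B and C. At 0 h of E11.5 it was the top gene in replicate C alone (9482 CPM). It also led some later-stage libraries, at up to 20506 CPM (E14.5 replicate B at 2 h), and the lowest top gene of any library took 5042. Its part in the E11.5 changes at 12 h, and in comparisons with them, was not tested. At 0 h the summed level of 6 progenitor markers was 9835, 3801 and 1366 CPM in order of stage, and that of 6 neuron markers was 2951, 5670 and 7529 CPM. Of 2 intermediate progenitor markers, Eomes fell at both steps (log2 -0.51 and -0.48), while Neurog2 rose and then fell (1.25 and -1.34). Of 5 microglia markers, 0 were called at the first step and 1 rose at the second. Of 3 oligodendrocyte lineage markers, 2 rose and 1 fell at the first step and 1 rose at the second. Other cell types moved with the stage too. Erythroid markers summed to 1651 to 3680 CPM at E11.5, 40.4 to 58.4 at E14.5 and 25.6 to 59.0 at E16.5, and fibroblast and mural markers to 437 to 668, 8.57 to 9.07 and 21.7 to 45.2 CPM. All 6 progenitor markers fell at both steps, 5 of 6 neuron markers rose at each (Tbr1 was not called at the first, and Neurod6 fell at the second), all 4 tested of 6 erythroid and all 6 fibroblast and mural markers fell from E11.5 to E14.5, and no marker stood at 0 in all libraries of a stage. In these mixed cultures, fewer cells of a type and less RNA per cell cannot be told apart.

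The question of the 0 h libraries was how chaperone RNA levels differ between the stages of neurogenesis. Summed over the 83 genes, the level was 13695 ± 382 CPM at E11.5 and 13438 ± 1021 at E14.5, and 10400 ± 44.0 at E16.5 (SD, n = 3 pools). The largest parts were the constitutive cytosolic list, 5397 ± 107, 4632 ± 345 and 3391 ± 54.5 CPM, and the chaperonin CCT, 4243 ± 168, 4340 ± 418 and 3335 ± 13.4 CPM. Hsp90ab1 alone, given below by library, made up most of the constitutive sum at each stage and most of its fall. That sum is therefore not a measure of the other genes of its list. The heat-inducible cytosolic list stayed between 586 and 648 CPM by stage mean. A list of 3 vesicle and clathrin J-domain proteins ran the other way, at 305 ± 15.9, 499 ± 16.9 and 597 ± 9.04 CPM.

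Counted gene by gene, 70 of the 83 passed the count minimum. At E14.5, 20 were higher and 10 lower than at E11.5 by edgeR's quasi-likelihood test with Benjamini-Hochberg adjustment over 18408 genes, where 25.1% of all genes were called higher and 23.5% lower. At E16.5, 11 were higher and 30 lower than at E14.5, with 24.1% and 25.4% of all genes called in those directions. Against E11.5, 18 were higher and 30 lower at E16.5, beside 31.4% and 33.1%. The median log2 change of the tested members was 0.05, -0.08 and -0.11 in these comparisons, beside -0.01, -0.00 and -0.04 over all genes tested. Changes past 2-fold were few, 3 higher and 4 lower at E14.5 against E11.5 (8.14% and 8.0% of all genes), 2 and 2 at E16.5 against E14.5 (7.19% and 5.92%), and 7 and 6 at E16.5 against E11.5 (14.7% and 14.6%). The comparisons share libraries and are not independent of each other.

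**Figure D1:**
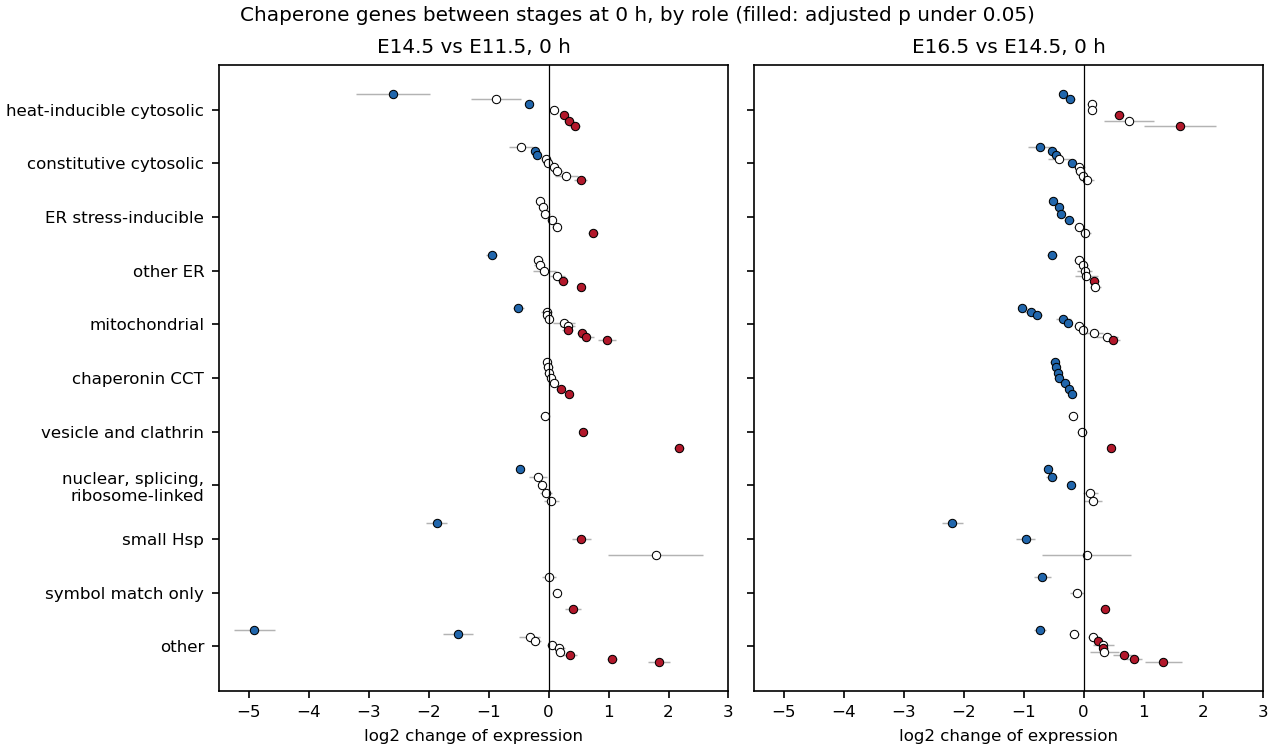
Log2 change at 0 h (x axis) of each tested member at E14.5 against E11.5 and at E16.5 against E14.5, grouped by role (y axis), with bars of ± 1 SE. Filled red points were called higher, filled blue points lower, open points were not called. In the E16.5 against E14.5 panel all 7 CCT subunits lie between -0.19 and -0.48.

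Among the heat-inducible cytosolic genes, 7 of 8 were tested, and they split in direction. At E14.5 3 were higher and 2 lower than at E11.5, beside 25.1% and 23.5% of all genes. At E16.5 2 were higher and 2 lower than at E14.5, beside 24.1% and 25.4%. The same shares stand beside the counts of the other lists at these steps. The 9 constitutive relatives were all tested, with 1 higher and 2 lower at the first step and 0 higher and 4 lower at the second. The list medians were 0.09 and 0.14 on the log2 scale for the inducible genes and -0.00 and -0.19 for the constitutive ones; the difference between the lists was not tested.

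Hsp90ab1, the constitutive cytosolic Hsp90, was the most abundant member per length at every stage, with 1427, 1193 and 810 CPM per kb of exon. Its replicates A, B and C read 4357, 4321 and 4157 CPM in E11.5 libraries, then 3365, 3492 and 3878 in those of E14.5 and 2406, 2478 and 2401 in those of E16.5. No library of a stage overlapped those of another, and the order was downwards. Log2 changes were -0.22 (SE 0.06, adjusted p = 0.0071) at the first step and -0.53 (SE 0.06, adjusted p = 1.2e-05) at the second. Its stress-inducible counterpart Hsp90aa1 did not fall over the 3 stages. Its levels were 227, 210 and 194 CPM in E11.5 libraries, then 236, 245 and 299 in those of E14.5 and 225, 212 and 212 in those of E16.5, or 53.6, 66.2 and 55.1 CPM per kb. E14.5 was highest in this gene, by 0.33 against E11.5 (adjusted p = 0.0052), and E16.5 was 0.23 lower than E14.5 on the log2 scale (-0.23, adjusted p = 0.041), a call lost with DESeq2 and without E14.5 replicate C or any E16.5 replicate.

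Hsph1, the Hsp110 nucleotide exchange factor of Hsp70, is heat-inducible yet went down with the constitutive Hsp90. It read 227, 224 and 231 CPM in E11.5 libraries, then 169, 184 and 174 in those of E14.5 and 134, 134 and 138 in those of E16.5. The stages did not overlap, and E16.5 lay 0.68 below E11.5 (log2 -0.68, SE 0.06, adjusted p = 3.9e-07). The relative Hspa4, which also exchanges nucleotides on Hsp70, changed less, with means of 532, 448 and 429 CPM and a log2 change of -0.20 from E11.5 to E16.5 (adjusted p = 0.0083). The J-domain co-chaperones among the inducible genes went up. Dnajb4 had means of 11.8, 15.2 and 22.4 CPM and was 1.02 higher on the log2 scale at E16.5 than at E11.5 (SE 0.09, adjusted p = 2.8e-07), and Dnaja1 went from 108 to 133 CPM (0.41, adjusted p = 9.1e-05). Dnajb1, the classic Hsp40, read 68.2, 80.2 and 66.3 CPM in E11.5 libraries, then 71.7, 73.3 and 69.4 in those of E14.5 and 78.7, 78.3 and 75.6 in those of E16.5. The E11.5 libraries spanned most of that range, and only the comparison of E16.5 with E11.5 was called (0.22, SE 0.07, adjusted p = 0.021), a call lost without E11.5 replicate A or C or E16.5 replicate B.

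The stress-induced Hsp70 genes were nearly silent. Hspa1a read 0.313, 0.673 and 1.88 CPM in E11.5 libraries, then 0.212, 0.132 and 0.134 in those of E14.5 and 0.609, 0.403 and 0.507 in those of E16.5. Hspa1b read 0.782, 0.769 and 2.46 CPM, then 0.637, 0.726 and 0.617, then 1.33, 0.972 and 1.01. In both genes E11.5 replicate C stood far above the other libraries. Hspa1a was called at E14.5 against E11.5 (-2.59, SE 0.61, adjusted p = 0.0035; -1.54 and still called without E11.5 replicate C) and at E16.5 against E14.5 (1.61, adjusted p = 0.041; lost without any E14.5 replicate or E16.5 replicate A or C), and Hspa1b in no comparison. The 2 genes share 58.8% of the 50-base words of Hspa1a, and how reads fitting both were counted is not given in the sources used here. Summed, they read 2.29, 0.819 and 1.61 CPM by stage mean, and the E16.5 against E14.5 change was 0.92 and no longer called (adjusted p = 0.088).

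Hspa8, the constitutive Hsp70 of every cell, was listed at only 3.13, 3.17 and 2.31 CPM in E11.5 libraries, then 2.74, 3.86 and 3.70 in those of E14.5 and 2.55, 2.44 and 2.70 in those of E16.5, with no call. This level cannot be read as that of the protein-coding transcript: 70.0% of its 50-base words also occur in the pseudogene Gm15459, listed at 362, 358 and 244 CPM. The sums and counts of the constitutive list above took Hspa8 as listed. Summed with the 4 genes that share its sequence, Hspa8 reached 387, 389 and 260 CPM, of which 0.742% to 0.984% was listed under Hspa8, and the summed level of E16.5 was below that of E14.5 (-0.54) and of E11.5 (-0.49). Hsp90aa1 and Hspd1 share words with pseudogenes as well, and held 66.1% to 66.5% and 50.8% to 53.2% of their sums; the sums changed by 0.33 and -0.23 at the 2 steps for Hsp90aa1, as the gene alone did, and by -0.09 and -0.72 for Hspd1.

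**Figure D2:**
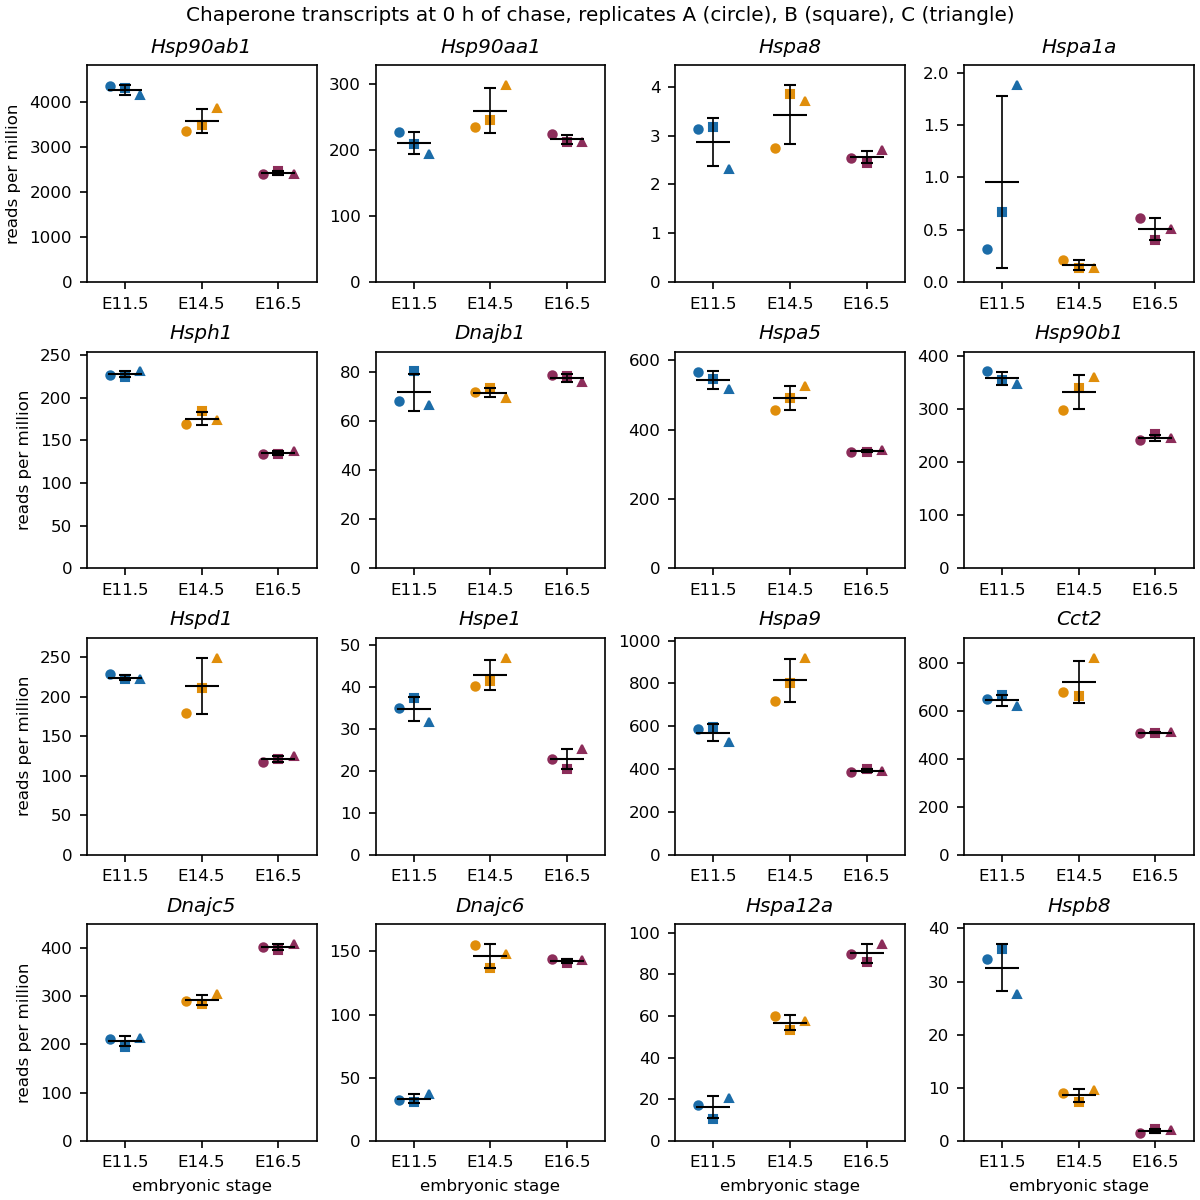
CPM at 0 h (y axis, a scale for each gene) of 16 members by stage (x axis), with replicates A, B and C as circle, square and triangle, a dash for the mean and bars of ± 1 SD (n = 3 pools). Hsp90ab1, Hsph1 and Hspb8 go down over the 3 stages, Dnajc5 and Hspa12a go up, and Hspa9 peaks at E14.5.

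Of the 6 ER chaperones that the unfolded protein response induces, all tested, 1 rose from E11.5 to E14.5 and the others were not called, and 4 fell from E14.5 to E16.5. Hspa5 (BiP), the Hsp70 of the ER, read 567, 545 and 517 CPM in E11.5 libraries, then 457, 492 and 525 in those of E14.5 and 336, 337 and 341 in those of E16.5. The first stages overlapped (-0.09, adjusted p = 0.25), and E16.5 lay below every other library (-0.52 against E14.5, SE 0.06, adjusted p = 1.8e-05). Hsp90b1 (GRP94), the Hsp90 of the ER, had the same order, with 371, 355 and 347, then 298, 339 and 361, then 241, 252 and 245 CPM, and log2 changes of -0.06 (adjusted p = 0.53) and -0.41 (SE 0.07, adjusted p = 0.00027). Dnajc10, a reductase that works with BiP, changed by -0.38 at the second step, and Dnajc3, which also inhibits the kinase PERK, by -0.25. Dnajb11, another BiP co-chaperone, was called in no stage comparison. Dnajb9, the BiP co-chaperone that restrains IRE1, went up instead, from 12.7 ± 0.561 to 20.2 ± 0.989 and 20.4 ± 1.41 CPM (0.74 at E14.5, SE 0.09, adjusted p = 1.7e-05).

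Of the 7 other ER members, all were tested, with 2 higher and 1 lower at E14.5 against E11.5. Dnajc1 fell at both steps (means 40.5, 20.5 and 13.3 CPM, -1.48 from E11.5 to E16.5), and Hspa13 rose at both (68.5, 97.6 and 107 CPM, 0.72).

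The mitochondrial folding machinery peaked at E14.5 as a sum, at 1058 ± 47.2, 1289 ± 149 and 742 ± 7.26 CPM. Hspa9 (mortalin), the Hsp70 of the matrix, set most of this. It read 588, 598 and 524 CPM in E11.5 libraries, then 720, 803 and 921 in those of E14.5 and 386, 398 and 390 in those of E16.5, so that every E14.5 library was above, and every E16.5 library below, all E11.5 libraries. The changes were 0.55 (SE 0.08, adjusted p = 9.0e-05) and -1.02 (SE 0.08, adjusted p = 6.6e-07). Hspd1 (Hsp60) and Hspe1 (Hsp10), which form the mitochondrial chaperonin and its lid, were lower at E16.5 by 0.78 and 0.88 (log2 -0.78, adjusted p = 1.7e-05, and -0.88, adjusted p = 6.1e-06). Hspd1 read 229, 223 and 222 CPM, then 179, 211 and 250, then 118, 120 and 125. Hspe1 read 34.9, 37.3 and 31.6 CPM, then 40.2, 41.4 and 46.9, then 22.7, 20.3 and 25. In both genes every E16.5 library was below all others, and in Hspd1 the E14.5 libraries spread on both sides of E11.5. Of the 10 genes of the list, 4 rose and 1 fell from E11.5 to E14.5, and 1 rose and 5 fell from E14.5 to E16.5. Dnajc28 (2.30, 4.31 and 4.74 CPM, 1.14 from E11.5 to E16.5) and Dnajc30 (0.80) rose, and Dnajc15, a J-domain protein of the import motor, fell (36.6, 25 and 21.4 CPM, -0.58).

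Subunits of the chaperonin CCT moved together at the second step. The list holds 8 genes; Cct6b, known as a testis form, was below the count minimum, and Tcp1, the first subunit, has another kind of symbol. All 7 tested subunits fell from E14.5 to E16.5, by log2 changes from -0.19 (Cct6a) to -0.48 (Cct2), with a median of -0.42. At E14.5 against E11.5, Cct2 (0.20, adjusted p = 0.037) and Cct4 (0.34, adjusted p = 0.0012) were higher and the other 5 were not called. Means lay between 464 (Cct4) and 779 CPM (Cct5) at E11.5. They lay between 521 (Cct3) and 741 (Cct5) at E14.5, and between 382 (Cct3) and 566 (Cct6a) by E16.5. In all 7 subunits E14.5 replicate C was the highest library of its stage, so that SDs were 30.1 to 88.5 CPM at E14.5 and 1.56 to 10.5 at E16.5. Without that pool the calls of Cct2 at the first step and of Cct6a at the second were lost; the first was also lost without any E11.5 or E16.5 replicate and the second without any E16.5 replicate.

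Of the 3 members that act at vesicles and endosomes, 2 rose and 1 fell between E11.5 and E16.5. Dnajc5 (cysteine string protein), a chaperone of synaptic vesicle proteins, read 210, 195 and 214 CPM in E11.5 libraries, then 289, 284 and 304 in those of E14.5 and 401, 395 and 408 in those of E16.5, with no overlap (1.04 from E11.5 to E16.5, SE 0.06, adjusted p = 9.2e-09). Dnajc6 (auxilin 1), the neuronal uncoating factor of clathrin, read 32.2, 30.8 and 37.4, then 155, 137 and 148, then 144, 141 and 143 CPM. It was 2.18 higher at E14.5 than at E11.5 (SE 0.09, adjusted p = 7.7e-10) and level afterwards (-0.03, adjusted p = 0.82). Dnajc13, an endosomal J-domain protein, was 0.25 lower at E16.5 than at E11.5 (log2 -0.25, adjusted p = 0.0086). Outside the lists, the divergent Hsp70 gene Hspa12a went from 17.2, 10.7 and 20.8 CPM at E11.5 to 59.9, 53.1 and 57.4, then 89.7, 85.7 and 94.6 (2.51 from E11.5 to E16.5, SE 0.19, adjusted p = 7.8e-08). Dnajb5 (means 68.7, 139 and 161 CPM, 1.29) and Dnaja4 (3.25, 3.85 and 6.72 CPM, 1.19) also rose. These levels moved in the direction of the neuron markers, whose part in them was not tested.

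From E11.5 to E16.5 the largest falls among the 70 tested members were those of Hspb8 and Hspa12b. Hspb8, a partner of Bag3 in selective autophagy, read 34.2, 36.1 and 27.6 CPM in E11.5 libraries, then 8.94, 7.26 and 9.58 in those of E14.5 and 1.41, 2.25 and 1.98 in those of E16.5. Its stages did not overlap, and E16.5 lay 4.06 below E11.5 (log2 -4.06, SE 0.19, adjusted p = 1.1e-09). Hspb6 peaked at E14.5 (9.25, 13.2 and 6.70 CPM; 0.55 and -0.97). The other 5 small heat shock genes did not exceed 1.16 CPM in any of the 45 libraries, and Hspb1 (Hsp25) did not exceed 0.175 CPM. Hspa12b, a gene described in endothelium, read 3.21, 4.86 and 4.50 CPM in E11.5 libraries, then 0.149, 0.132 and 0.0805 in those of E14.5 and 0.457, 0.332 and 0.240 in those of E16.5 (-4.91, then 1.33, and -3.59 from E11.5 to E16.5). At the later stages these levels are few reads, so the change of 1.33 is uncertain. The summed 4 endothelial markers read 2.85 to 3.64, 0.616 to 2.21 and 1.87 to 2.64 CPM, with 1 of 4 called lower at the first step and 0 of 4 at the second. Their part, and that of the fibroblast and mural markers given above, in the levels of Hspa12b and Hspb8 was not tested. Hspa2, the testis-rich Hsp70, fell from 3.48 to 1.39 CPM (-1.19), and Dnajc12, a co-chaperone of aromatic amino acid hydroxylases, from 2.43 to 0.968 CPM (-1.17).

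Of the 5 nuclear, splicing and ribosome-linked J-domain proteins, 1 fell at the first step, 3 fell at the second, and none rose. Dnajc9, a histone chaperone, fell at each step (means 120, 81.4 and 53.7 CPM, -1.08 from E11.5 to E16.5, adjusted p = 7.6e-09), and Dnajc2, which binds ribosomes, was 0.57 lower at E16.5 than at E11.5 (log2 -0.57). Dnajc8, a splicing factor, changed by -0.21 at the second step, and Dnajc17 and Dnajc21 were not called in any stage comparison. The list of 5 summed to 296 ± 18.1, 245 ± 9.91 and 183 ± 8.86 CPM. Hspbp1, a nucleotide exchange factor of Hsp70 that entered by symbol, rose by 0.49 from E11.5 to E16.5 (71.0, 75.9 and 95.1 CPM). Of the 13 members below the count minimum at 0 h, whose highest value in any library was 1.16 CPM, Dnajb8 was at 0 in all 45 libraries, which allows up to 3 reads in each, or 0.0622 to 0.169 CPM.

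Over the chase the question was whether members changed in level after the switch from 4sU to uridine medium. Each stage had a fit over its 15 libraries. At E11.5, 0, 7 and 8 of 70 members were called at 2, 4 and 8 h against 0 h, beside 1.33%, 6.24% and 14.1% of all genes tested; for the 0, edgeR's quasi-likelihood test gave 9 members at an unadjusted p under 0.05 and DESeq2 called 3. At 12 h 7 were higher and 9 lower, beside 13.2% and 9.83%. At E14.5, 2, 8 and 7 were called (1.38%, 6.61% and 6.19%), then 4 higher and 3 lower at 12 h (7.64% and 7.41%). At E16.5, 5, 16 and 18 were called (5.8%, 14% and 19.4%), then 12 higher and 5 lower at 12 h (14.2% and 12.0%). With the pool as a block, which the design allows because the wells of a letter share a pool, the counts were 3, 17 and 15 at E11.5, 4, 21 and 14 at E14.5 and 10 at 2 h of E16.5, and 14, 9 and 8 members were lower at 12 h. Leaving out a pool lowered most counts: at 12 h, the higher and lower calls were 2 and 1, 2 and 0, and 6 and 10 without E11.5 replicate A, B and C, 2 and 1, 0 and 1, and 3 and 5 without those of E14.5, and 7 and 1, 5 and 3, and 8 and 2 without those of E16.5. At 2, 4 and 8 h they were 0, 0 and 1 without E11.5 replicate A or B and 0, 9 and 12 without C, and 0, 2 and 2, then 0, 1 and 0, then 1, 7 and 2 for E14.5, and 0, 8 and 7, then 0, 9 and 8, then 0, 7 and 9 for E16.5. Single calls over the chase therefore rest on few pools, and the values per library are given for the members described. No share of all genes called is given for the fits with the block or without a pool. Those counts therefore cannot be set against all genes.

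Some of the ER stress-inducible members fell early in the chase. At 4 h, 2 of 6 were lower in the E11.5 fit (2.35% of all genes), 3 in that of E14.5 (1.89%) and 3 in that of E16.5 (6.47%), with list medians of -0.18, -0.33 and -0.13 beside -0.01 over all genes at each stage, and none was higher. At 12 h, 4 were lower in the E11.5 fit, 1 in that of E14.5 and 1 in that of E16.5, where 2 were higher (Hspa5 and Dnajc10). In Hspa5 the E14.5 libraries read 457, 492 and 525 CPM at 0 h, 343, 377 and 418 at 2 h, 296, 318 and 349 at 4 h, 336, 382 and 344 at 8 h, and 351, 468 and 424 at 12 h. The 4 h libraries were all below the 0 h libraries (-0.61, SE 0.09, adjusted p = 0.0019), and at 12 h each pool was below its own 0 h value, although the libraries overlapped (-0.24, adjusted p = 0.094; -0.25, adjusted p = 0.0026, with the pool as a block). At E16.5, Hspa5 read 336, 337 and 341 CPM at 0 h, 275, 281 and 289 at 4 h (-0.24), 324, 332 and 324 at 8 h, and 368, 371 and 372 at 12 h (0.15, SE 0.04, adjusted p = 0.0046). It thus dipped and ended above its start. At E11.5 it went from 567, 545 and 517 CPM to 441, 431 and 452 at 4 h (-0.30) and 417, 404 and 366 at 12 h (-0.26, SE 0.05, adjusted p = 0.0016), with no return. The CPM at 12 h of E11.5 fell by more than the tested change, which used TMM scaling in place of library totals.

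Dnajb9 was lower at 4 h at every stage. At E14.5 it read 21.3, 19.3 and 20.1 CPM at 0 h, 12.7, 12.8 and 13.7 at 2 h, 11.4, 11.2 and 12.8 at 4 h, 13.2, 14.2 and 14.4 at 8 h, and 13.7, 14.7 and 15 at 12 h. Every chase library was below every 0 h library (-0.78 at 4 h, SE 0.08, adjusted p = 7.6e-05; -0.50 at 12 h, adjusted p = 0.00072). It was 0.57 lower at 4 h of E11.5 (log2 -0.57, adjusted p = 0.0090) and 0.30 lower at 4 h of E16.5 (log2 -0.30, adjusted p = 0.037). Hsp90b1 was called lower at 8 h at each stage (-0.24, -0.45 and -0.15), and Dnajb11 at 8 h at E14.5 (-0.39) and E16.5 (-0.28). Hsp90b1 at 12 h of E14.5 was not called (-0.25, adjusted p = 0.12), but was with the pool as a block. Of the pathway genes in the ER that are no members, Calr (calreticulin) was lower at 4 h of E11.5 (-0.30) and E14.5 (-0.59), and Pdia4, a disulfide isomerase, at the same times (-0.29 and -0.44). At 12 h Hyou1, the Hsp110 relative of BiP, was lower at E11.5 (-0.27) and E14.5 (-0.30) and Calr at E14.5 (-0.24), while Calr (0.26) and Pdia4 (0.34) were higher at E16.5.

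**Figure D3:**
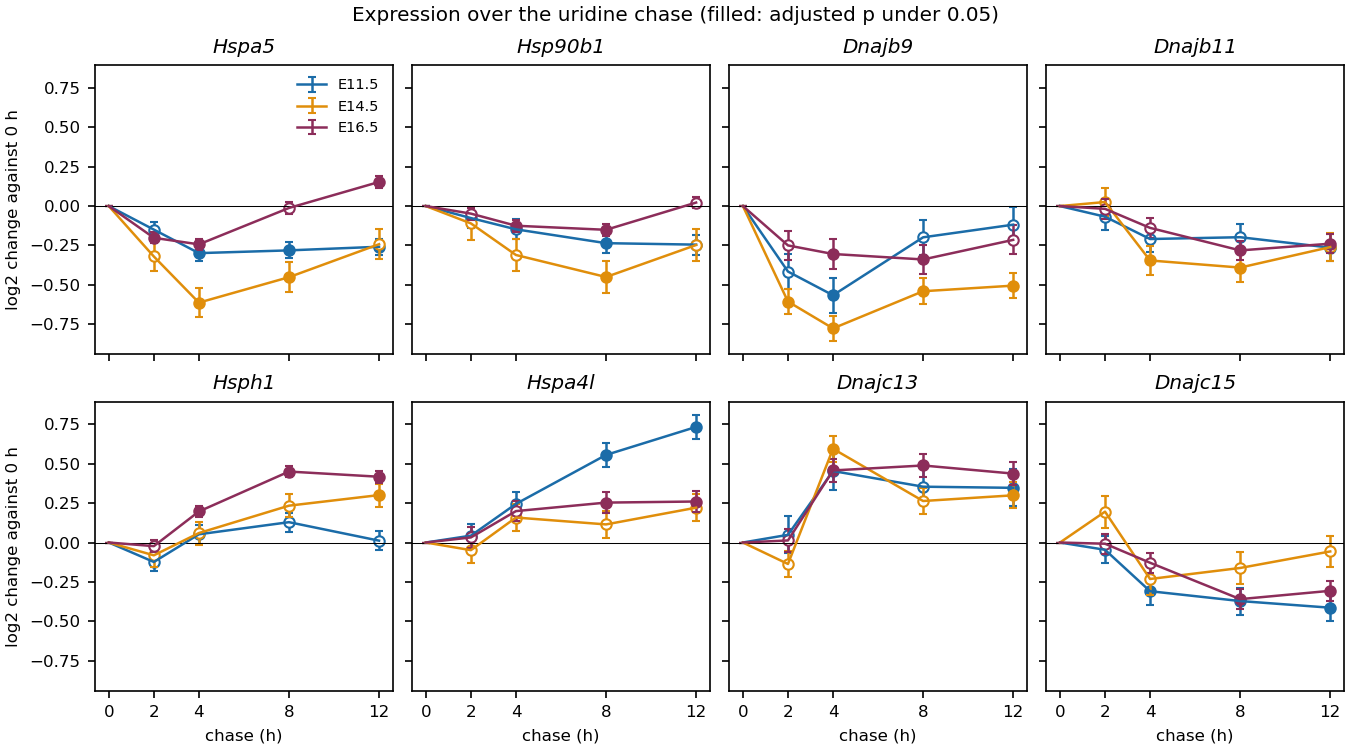
Log2 change against 0 h ± 1 SE (y axis) over the chase in hours (x axis) for 8 members, with E11.5 in blue, E14.5 in orange and E16.5 in purple; filled points were called. Hspa5 and Dnajb9 dip at 4 h, Hsph1 climbs at E16.5, and Hspa4l climbs most at E11.5.

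At 12 h, 0, 2 and 1 of the 7 tested heat-inducible cytosolic genes were higher in order of stage and 1, 0 and 0 lower, and 1, 0 and 3 of the 9 constitutive genes were higher and none lower. The shares of all genes are those given above. Hsph1 at E16.5 read 134, 134 and 138 CPM at 0 h, 132, 130 and 133 at 2 h, 151, 150 and 158 at 4 h, 176, 179 and 180 at 8 h, and 173, 176 and 181 at 12 h. All libraries from 4 h on were above those at 0 h (0.42 at 12 h, SE 0.04, adjusted p = 1.7e-06). It was 0.30 higher at 12 h of E14.5 (adjusted p = 0.011) and called at no time at E11.5. There the 12 h libraries read 209, 210 and 183 CPM against 227, 224 and 231, but the tested log2 change was 0.01. CPM are scaled to library totals, and the test used TMM scaling. On log2(CPM + 1) the median of all genes at 12 h of E11.5 shifted by -0.14. Hspa4l, a member of the Hsp110 family placed here in the constitutive list, rose most at E11.5, from 42.2, 39.4 and 40.9 CPM to 61.2, 62.3 and 56.6 at 8 h and 64.0, 60.3 and 53.1 at 12 h (0.73, SE 0.08, adjusted p = 8.4e-06), and by 0.26 at 12 h of E16.5. Dnajb4 was higher at 12 h of E14.5 (0.41), and Hsp90ab1 at 12 h of E16.5 (0.17, adjusted p = 0.0075). Neither Hsp90aa1 nor Dnajb1 was called at any time of any stage. Dnaja1 was lower at 8 h (-0.21, adjusted p = 0.032) and 12 h (-0.20) of E11.5. Outside the cytosolic lists, Hspbp1 was lower at 12 h of E11.5 (-0.30, adjusted p = 0.019) and Dnajb2 at 4 and 12 h of E16.5 (-0.26 and -0.19). Hspa8 was lower at 8 h of E14.5 (-0.92, adjusted p = 0.025), but its sum with the genes that share its sequence was not (-0.02, adjusted p = 0.95). With the pool as a block Hspa8 was also called lower at 12 h of E11.5 (-0.59) and E16.5 (-0.53), where the sums were higher (0.23 and 0.43).

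Dnajc13 was the member that rose at 12 h at all 3 stages, by 0.35, 0.30 and 0.44. At E14.5 it stood highest at 4 h, with 88.0, 92.1 and 92.2 CPM against 55.9, 61.0 and 62.9 at 0 h (0.59, adjusted p = 0.00095). Dnajc15 fell at 12 h of E11.5 (-0.41) and E16.5 (-0.31), and Dnajb12, an ER membrane J-domain protein, at the same stages (-0.23 and -0.32). Dnajc6 rose at E11.5 (0.50), where its level was lowest. Of the mitochondrial chaperonin, Hspd1 (0.23) and Hspe1 (0.26) rose at 12 h of E16.5 from 118, 120 and 125 to 139, 145 and 140 CPM and from 22.7, 20.3 and 25 to 25.9, 26.9 and 26.9 CPM. Hspb3 (1.16) passed the count minimum in the E16.5 fit at levels up to 1.16 CPM. Dnajb3, at 2.62, 1.97 and 2.68 CPM by 0 h stage mean, was lower at 4 h at all stages (-1.24, -0.92 and -0.71).

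A test of the difference of the 12 h change between stages was run over all 45 libraries, in which 69 members were tested. Against E11.5, 4 members changed more upwards at E16.5 (3.47% of all genes called), and 2 more downwards (5.43%). They were Hspa5 (0.41), Hsph1 (0.41), Hspbp1 (0.39) and Dnaja3 (0.34), and Dnajc6 (-0.49) and Hspa4l (-0.47). Between E14.5 and E11.5, 4 were called (6.07% in either direction), Hsph1 (0.26), Dnajc6 (-0.50), Hspa4l (-0.54) and Hspb6 (-0.83). Between E16.5 and E14.5 only Hspa5 was called (0.42; 0.906% of all genes). With the pool as a block the 3 counts were 15, 13 and 7, for which no share of all genes is given. Without a pool they ran from 4 to 10, from 2 to 5 and from 0 to 1, with 10 without E14.5 replicate C in the first, 2 without E14.5 replicate B in the second, and 0 without E14.5 replicate C or any E16.5 replicate in the third.

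Half-lives were the next readout: the time for the conversion rate of a transcript to fall to 50% of its 0 h value, from an exponential fit in each pool. At 0 h the median conversion rate of the members was 1.18%, 1.11% and 1.79% of thymines in order of stage, beside 1.18%, 1.12% and 1.84% over all transcripts. Half-lives were kept for 55, 59 and 58 members per stage and at all 3 stages for 53, of 9505 transcripts in all. The median member lived 4.69 ± 0.678, 4.90 ± 0.322 and 3.85 ± 0.138 h, beside 4.31 ± 0.445, 4.52 ± 0.195 and 3.37 ± 0.0731 h for all transcripts (SD over 3 pools). Of the 53, 31, 33 and 34 lay above the median of all transcripts. Both medians were shortest at E16.5.

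**Figure D4:**
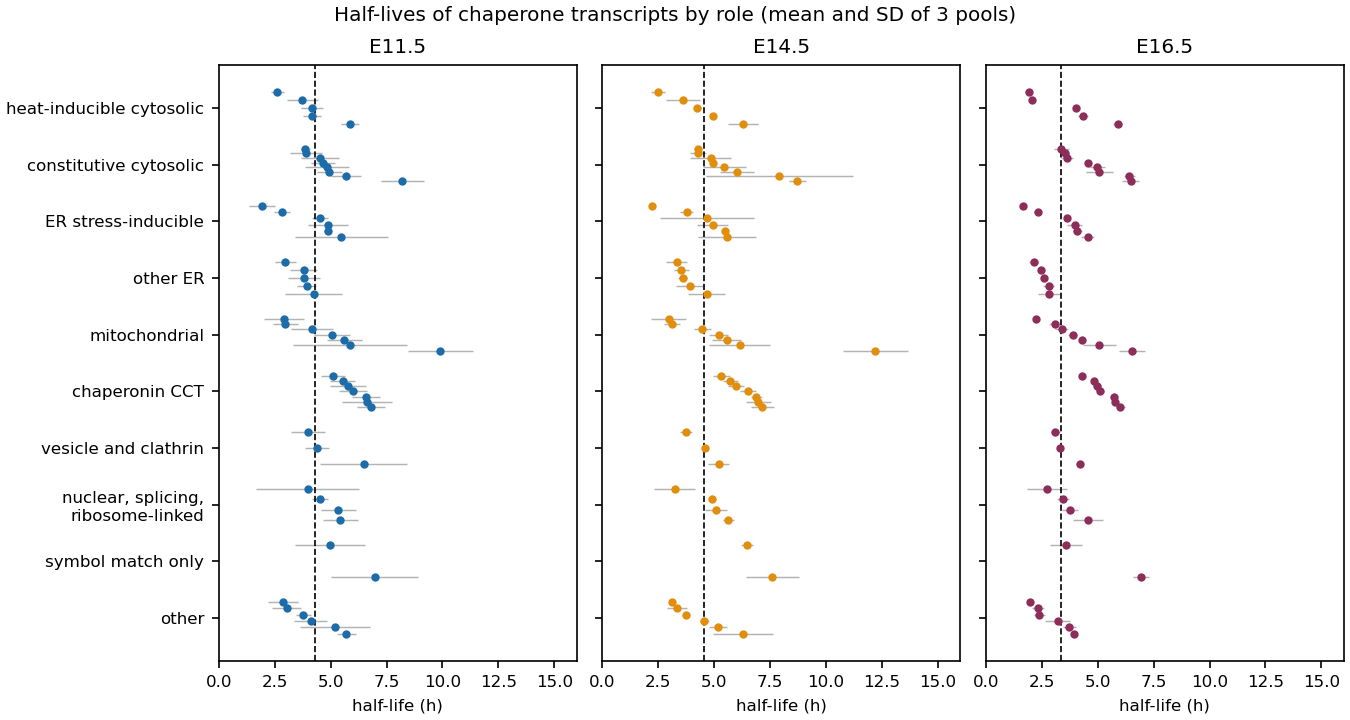
Half-life in hours (x axis, mean ± SD of 3 pools) of each member measured at all stages, by role (y axis) and stage; dashed lines are the median of all transcripts at the stage. All 7 CCT subunits lie to the right of the line at each stage, and Dnajb9 and Dnajb1 lie near the left end.

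Stress-inducible cytosolic transcripts had a shorter median half-life than their constitutive relatives. The median of the 5 inducible genes measured (Hsph1, Hsp90aa1, Dnajb1, Dnaja1 and Dnajb4) was 4.15 ± 0.399, 4.36 ± 0.180 and 4.04 ± 0.160 h, and that of 8 constitutive genes 4.73 ± 0.654, 5.28 ± 0.364 and 4.69 ± 0.216 h. The inducible median was the shorter in 9 of 9 pools, by 0.144 to 1.27 h (differences from -1.27 to -0.144 h). The constitutive median took in the Hspa8 half-life, which was that of few reads. The same order held for most relatives taken by pairs, which come from the same lists and give no separate support. Hsp90aa1 was shorter-lived than Hsp90ab1 in 9 of 9 pools (differences from -2.92 to -0.305 h), Dnajb1 than Dnajb6 (-4.40 to -1.11 h) and Hsph1 than Hspa4 (-0.925 to -0.297 h), while Dnaja1 outlived Dnaja2 in 7 of 9. Dnajb6, listed as constitutive, is the gene of that list whose promoter held a heat shock element. The inducible list was not uniform, since Hsp90aa1 was long-lived, at percentiles 78.6, 81.6 and 89.2 of all kept transcripts of its stage, and Dnajb1 short-lived, at percentiles 5.62, 4.20 and 6.74.

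Dnajb1 had half-lives of 2.42, 2.95 and 2.47 h in E11.5 pools, then 2.50, 2.17 and 2.79 h in those of E14.5 and 1.85, 1.81 and 2.07 h in those of E16.5. Its 9 pools all stayed below 3 h. Hsp90aa1 read 5.50, 6.30 and 5.78 h, then 5.97, 5.83 and 7.06 h, then 5.82, 5.72 and 6.11 h. Hsp90ab1 read 8.18, 9.17 and 7.26 h, then 8.31, 8.75 and 9.07 h, then 6.12, 6.61 and 6.49 h. Hsp90ab1 was the longer-lived in each pool, but its E16.5 pools lay below all its earlier ones while those of Hsp90aa1 did not. The median of all transcripts was also shortest at E16.5 (4.31, 4.52 and 3.37 h in order of stage). Relative to all transcripts, as compared below, Hsp90ab1 was not called between stages. The Hspa8 half-life (3.89, 7.91 and 6.47 h) was that of few reads, and the sum with the genes that share its sequence gave 4.83, 5.27 and 4.76 h. Too little signal was left to fit Hspa1a or Hspa1b.

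In the ER the stress-inducible genes were the longer-lived list, with medians of 4.36 ± 0.685, 4.60 ± 0.841 and 3.75 ± 0.129 h over 6 genes against 3.62 ± 0.678, 3.63 ± 0.319 and 2.53 ± 0.0435 h over 5 other ER members. They were longer in 9 of 9 pools, by 0.0412 to 2.24 h. Dnajc3 (2.97 h by the mean of the 3 stages) and Dnajb9 were exceptions, and 4 of the 6 genes lay above the all-transcript median at each stage. Dnajb9 was the shortest-lived of the 53 members. It had 2.54, 1.80 and 1.43 h in E11.5 pools, then 2.29, 2.14 and 2.24 h in those of E14.5 and 1.77, 1.60 and 1.55 h in those of E16.5, and was shorter than Hspa5 in 9 of 9 pools. Its conversion rate stood at 1.24%, 1.12% and 1.88% at 0 h (in order of stage) and 0.510%, 0.611% and 0.730% at 2 h.

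Hspa5 did not decay alike in all pools. It had 6.56, 6.79 and 3.09 h in E11.5 pools (replicates A, B and C), then 3.50, 3.44 and 7.09 h in those of E14.5 and 3.89, 4.32 and 4.07 h in those of E16.5. E11.5 replicates A and B and E14.5 replicate C thus stood apart from the other pools. In these 3 pools the conversion rate at 12 h was 0.657%, 0.518% and 0.609%, and at E11.5 replicate C and E14.5 replicates A and B it was 0.211%, 0.228% and 0.173%. At E16.5 the rates were 0.541%, 0.558% and 0.514% at 12 h and 0.522%, 0.578% and 0.534% at 8 h, so they did not fall between those times, where the median of all transcripts went from 0.258% to 0.199%. A single exponential has no such plateau. The level of Hspa5 fell between 0 and 4 h at every stage, as given above.

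**Figure D5:**
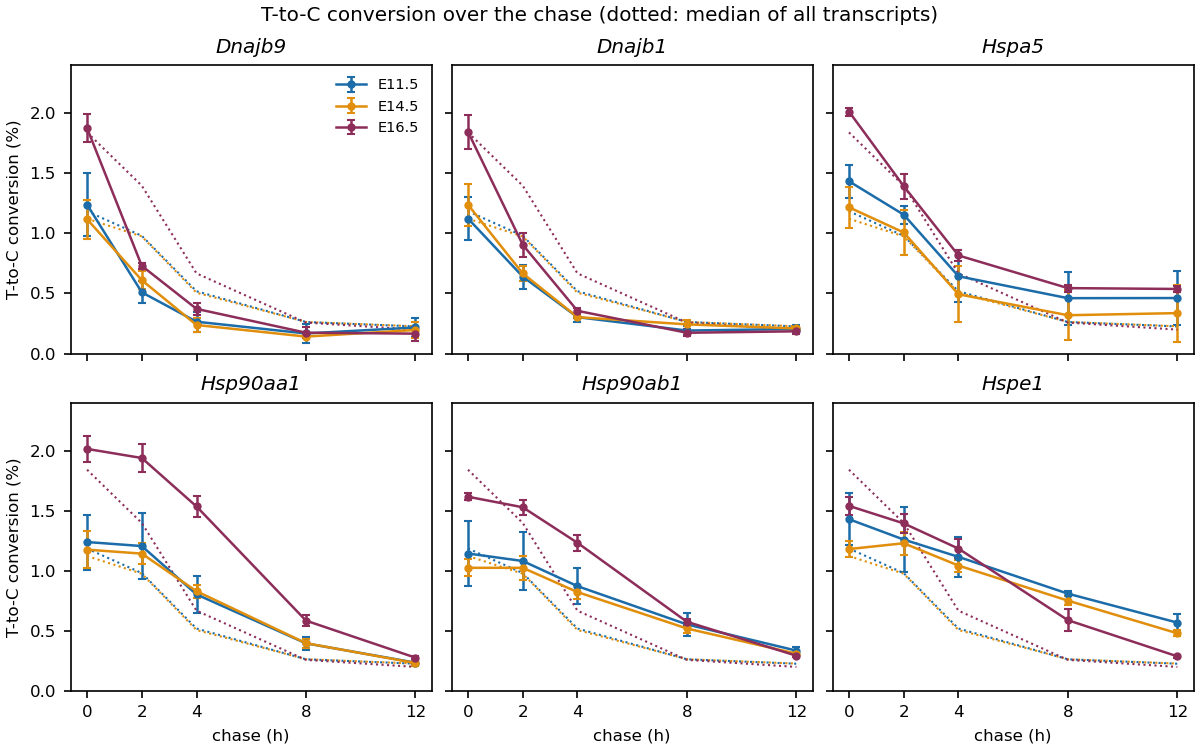
T-to-C conversion rate in percent of covered thymines (y axis, mean ± SD of 3 pools) over the chase in hours (x axis) for 6 members by stage, with the median of all transcripts dotted. Dnajb9 and Dnajb1 lie below the dotted line at 2 h, Hspe1 and Hsp90ab1 lie above it from 4 h on, and Hspa5 levels off between 8 and 12 h.

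CCT transcripts were long-lived as a group. Their median was 6.02 ± 0.628, 6.49 ± 0.319 and 5.13 ± 0.131 h, and all 7 measured subunits were above the all-transcript median at each stage. Cct4 was the shortest-lived subunit by stage mean (5.09, 5.31 and 4.28 h) and Cct8 the longest-lived (6.79, 7.15 and 6.01 h). The CCT median exceeded that of the heat-inducible genes in 9 of 9 pools, by 1.06 to 2.37 h.

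The longest-lived member was Hspe1, with 11.502, 9.56 and 8.64 h in E11.5 pools, then 11.8, 11.0 and 13.8 h in those of E14.5 and 5.87, 6.79 and 6.92 h in those of E16.5. Its partner Hspd1, whose gene overlaps it head to head, had means of 5.62, 5.56 and 4.31 h and was shorter-lived in 9 of 9 pools, by 1.66 to 7.52 h. Every E16.5 pool of Hspe1 lay below all of its earlier pools, though relative to all transcripts it was not called between stages. By the mean of the 3 stages the order at the long end was Hspe1 (9.54 h), Hsp90ab1 (7.77 h), Hspbp1 (7.17 h), Cct8 (6.65 h) and Cct2 (6.39 h). At the short end it was Dnajb9 (1.93 h), Dnajb1 (2.33 h), Dnajb5 (2.65 h), Dnaja3 (2.78 h) and Dnajc27 (2.92 h). The mitochondrial list as a whole had medians of 4.82 ± 0.989, 5.20 ± 0.410 and 3.88 ± 0.205 h, spanning Hspe1 and the short-lived Dnaja3.

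Half-lives were next compared between stages relative to all transcripts, as z-scores within each pool. By limma's moderated test, 0 members differed between E14.5 and E11.5 (0.2% of all transcripts; 7 members at an unadjusted p under 0.05) and 0 between E16.5 and E14.5 (0.884%; 11). Between E16.5 and E11.5, 3 of 53 were called, all longer at E16.5, beside 2.99% of all transcripts called longer. They were Dnaja1 (0.64 z units, SE 0.10, adjusted p = 0.019), Cct7 (0.55, SE 0.10, adjusted p = 0.024) and Dnajc5 (0.45, SE 0.10, adjusted p = 0.045). The z-scores of Dnaja1 were -0.29, -0.27 and -0.23 in E11.5 pools, then 0.04, 0.07 and -0.08 in those of E14.5 and 0.29, 0.50 and 0.33 in those of E16.5. Its stages did not overlap. The F-test over the 3 stages called 1 member, Dnaja1 (3.15% of all transcripts). Between E16.5 and E11.5, 1 call was left without E11.5 replicate A and 0 without E11.5 replicate B or any E16.5 replicate, and the F-test kept its call only without E11.5 replicate B or C. In hours the order was not the same, since Cct7 had means of 6.02, 6.98 and 5.78 h and Dnajc5 of 4.38, 5.20 and 4.20 h.

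Features of the transcripts were set beside the mean half-life as a description, over members that share libraries and gene families. Across 50 members with an annotated 3′UTR, the rank correlation with 3′UTR length was -0.52, beside -0.29 over 8769 other transcripts. With the number of ATTTA words it was -0.32 beside -0.31, and with the number of exons 0.19 over 52 members beside 0.19. The 21 members with 3 or more ATTTA words had a median of 3.90 h and a median 3′UTR of 2759 nt, the 10 without any had 4.68 h and 268 nt, and the 19 with 1 or 2 had 4.81 h and 662 nt.

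Other genes of the pathway were 46 cofactors that the symbol rule does not take. Of 45 tested at 0 h, 10 rose and 10 fell from E11.5 to E14.5, beside 25.1% and 23.5% of all genes. From E14.5 to E16.5 5 rose and 23 fell (24.1% and 25.4%), and over both steps 9 and 20 (31.4% and 33.1%). Large changes from E11.5 to E16.5 included those of Bag3, the co-chaperone of Hspb8 (-3.12), the collagen chaperone Serpinh1 (-2.27) and Sil1, an exchange factor of BiP (-1.05), and, upwards, those of Hsbp1, which binds heat shock factor 1 (0.76), and Bag6 (0.45). At 12 h of the chase 3 of 45 were higher and 3 lower at E11.5 (13.2% and 9.83% of all genes), 6 and 2 of 46 at E14.5 (7.64% and 7.41%), and 8 and 1 of 46 at E16.5 (14.2% and 12.0%), among them Serpinh1 (0.51), Bag2 (0.42) and Chordc1 (0.36) at E16.5. The difference of the 12 h change between E16.5 and E14.5 was called for 3 of 45 (0.906% of all genes), Calr (0.53), Pdia4 (0.40) and Hyou1 (0.28). Between E16.5 and E11.5 it was called for 4, Serpinh1 (0.67), Calr (0.36), Ttc4 (0.34) and Hyou1 (0.23), and between E14.5 and E11.5 for the mitochondrial exchange factor Grpel2 alone (-0.34). The half-lives of the pathway genes had medians of 4.94, 5.09 and 4.09 h over 41 genes, with 30, 31 and 27 above the median of all transcripts.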

How the data were processed

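Wild-type cortical cells of 3 stages were labelled with 4sU and chased, giving 45 libraries in 15 groups of 3 pools, grouped by the stage, chase time and letter of their labels. Per the labels and the study's methods, the authors aligned stranded mRNA reads to mm10 with SlamDunk 0.4.3 and counted them over GENCODE vM24 exons; how multimapping reads and the strand were treated in counting is not given in the sources used here. The deposited tables, 9 in number, give per gene and library the covered-T counts, the conversion rate as a fraction and the reads as CPM. The deposited CPM came out as whole reads in 100% of values (tolerance 0.01). The authors' own half-life columns and R2, a score of fit that they deposited beside them, served only to check a refit: 99.991% of 117534 fits differed by less than 1%, and 11 by more. No column was left unmatched to a sample, and no pair of libraries was identical.

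The members and lists were chosen with earlier results of these data known. Covered-T counts were tested with edgeR 4.0.16 (R 4.3.3), TMM scaling and the quasi-likelihood F-test, on genes that exceeded 10 counts in every library of a fit, with Benjamini-Hochberg adjustment over all genes tested; a gene was called at an adjusted p under 0.05. A read covers many thymines, so these counts are not independent molecules, and the spread between pools sets the error. One fit took the 9 libraries at 0 h, one the 15 libraries of each stage, and one all 45. Half-lives came from exp(-kx) fitted to the conversion rate over its 0 h value, kept with more than 500 covered Ts at all 5 times, a half-life of 0 to 24 h and R2 over 0.6 in all 3 pools. They were z-scored within a pool over transcripts measured at all stages and tested with limma 3.58.1, in place of the study's maSigPro. Replicates are pools of embryos. Wells with the same letter within a stage are of the same pool by the study's design, and their deviations correlated with a median r of 0.16 to 0.37 per pool (lowest single r 0.067), while letters do not pair stages.

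Gene lengths and positions are from GENCODE vM21 (mm10), which held 96.6% of the symbols and all 83 members. Sequence sharing was the percent of the 50-base words of a transcript found in other genes. Alternatives were DESeq2 1.42.0, RLE scaling, no filter, recovered reads, limma on log2(CPM + 1), a replicate block, each pool left out, R2 over 0.8, over 2000 covered Ts, hours or log2 half-lives without z-scores, a fit without 0 h, subtraction of the background conversion, and, chosen after seeing the data, sums with genes sharing at least 20% of the words. The genes given in full were Hspa1a, Hspa1b, Hspa8, both cytosolic Hsp90 genes, Hsph1, Dnajb1, Hspa5, Hsp90b1, Hspd1 and Hspe1; others named were the role lists, up to 5 largest called changes each way in a comparison, and the 5 longest and 5 shortest half-lives, and a few more were named after their values were seen. Tests were tried on simulated data. Software also included Python 3.11.15, numpy 2.4.6, pandas 2.3.3, scipy 1.17.1 and matplotlib 3.10.9.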

Additional observations from a re-analysis of the deposited data

Results flagged for a closer look

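The change over the 12 h of the chase differed between stages, by an interaction contrast in edgeR with Benjamini-Hochberg adjustment, for 7 members in 11 comparisons. Values are differences of log2 changes. Between E16.5 and E11.5 they were 0.41 for Hspa5 (adjusted p = 0.0029), which ended the chase above its start at E16.5 and below it at E11.5, 0.41 for Hsph1 (0.00066), 0.39 for Hspbp1 (0.024), 0.34 for Dnaja3 (0.021), -0.49 for Dnajc6 (0.0026) and -0.47 for Hspa4l (0.0027). Between E14.5 and E11.5 they were 0.26 for Hsph1 (0.038), -0.50 for Dnajc6 (0.0030), -0.54 for Hspa4l (0.00075) and -0.83 for Hspb6 (0.0095). Between E16.5 and E14.5 the value was 0.42 for Hspa5 (0.016). The calls for Dnaja3, Hspbp1, Hspb6, Hspa5 between E16.5 and E14.5, and Hsph1 between E14.5 and E11.5 were lost without at least 1 of the pools.

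The half-life relative to all transcripts differed between E16.5 and E11.5, by limma with Benjamini-Hochberg adjustment, for Dnaja1 (0.64 z units, adjusted p = 0.019), Cct7 (0.55, 0.024) and Dnajc5 (0.45, 0.045). All 3 were higher in 3 of 3 E16.5 pools than in any E11.5 pool, an order that adds no support because the test picked them on these values. In hours without scaling the sign turned for Cct7 (-0.24) and Dnajc5 (-0.19), and 0 to 3 calls were left without a pool.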

How the results depend on the processing

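Stage differences at 0 h were the most stable results: the 6 counts stayed within 1.5 times under each alternative run, and without a pool were 16 to 21 higher and 9 to 11 lower (E14.5 against E11.5), 8 to 11 and 24 to 31 (E16.5 against E14.5), and 17 to 19 and 26 to 31 (E16.5 against E11.5). Chase counts moved. For E11.5, DESeq2 gave 3 at 2 h and 11 at 4 h, recovered reads 2 at 2 h, no filter 4 at 4 h and 5 lower at 12 h, and limma on log2(CPM + 1) 2 higher and 35 lower at 12 h, where it shifted the median of all genes by -0.14. For E14.5, DESeq2 gave 4 at 2 h and 6 lower at 12 h, and recovered reads and limma each 1 at 2 h and 5 lower at 12 h. For E16.5, recovered reads gave 8 at 2 h, and 8 lower at 12 h, as limma did, and no filter 3 lower. With the pool as a replicate block, in wells paired by design, calls were 3, 17 and 15 at 2, 4 and 8 h and 14 lower at 12 h (E11.5), 4, 21 and 14 and 9 lower (E14.5), 10 at 2 h and 8 lower at 12 h (E16.5), and 13, 7 and 15 for the difference of the 12 h change (E14.5 against E11.5, E16.5 against E14.5, E16.5 against E11.5). Among the named chase changes the block added a call for 7 and left 127 on their side of the threshold. The 7 were all at 12 h (Hspa5 and Hsp90b1 at E14.5, Cct3 and Hspa8 at E11.5, and Cct3, Cct4 and Hspa8 at E16.5). Without a pool, calls at 2, 4 and 8 h and higher and lower at 12 h were 0, 0 to 9, 1 to 12, 2 to 6 and 0 to 10 (E11.5), 0 to 1, 1 to 7, 0 to 2, 0 to 3 and 1 to 5 (E14.5), and 0, 7 to 9, 7 to 9, 5 to 8 and 1 to 3 (E16.5), and for the difference of the 12 h change 2 to 5, 0 to 1 and 4 to 10.

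Relative half-lives between stages depended on the settings. Between E16.5 and E14.5, 3 were called with R2 over 0.8 and 19 in hours without scaling. Between E16.5 and E11.5, 6 were called with R2 over 0.8, 5 with over 2000 covered Ts, 7 in hours, 0 to 3 without a pool, and 0 with the letter as a replicate block, which does not pair stages. The F-test called 7, 3 and 11 in the first 3 of these settings, 2 with background subtracted, 0 to 1 without a pool and 0 with the block. Without a pool, 0 were called for E14.5 against E11.5 and for E16.5 against E14.5, and median half-lives were 4.31 to 4.92, 4.72 to 5.05 and 3.78 to 3.92 h. A fit without 0 h, which kept 44 members, gave medians of 4.51 h (E14.5) and 3.23 h (E16.5), and moved 39 of 41 named half-lives by more than the spread between pools. Signs turned for Cct7 (-0.24) and Dnajc5 (-0.19) in hours, Dnajc5 without 0 h (-0.31), Cct2 at 12 h of E11.5 with limma (-0.18), and Hspa8 at 12 h when summed with genes sharing its sequence (0.23 at E11.5, 0.43 at E16.5). The causes were not tested. Depth limits Hspa1a, Hspa1b, Hspa8, Hspa12b at E14.5 and E16.5, and the members under 1.16 CPM.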
